A study of Mus musculus with 8 samples.

Results

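Antiviral effector and nucleic acid sensor genes of the type I interferon response were followed in whole skin from mouse embryos that lacked p63 or were wild type. The list held 45 genes, chosen from the interferon-stimulated genes with the null against wild-type differences of these arrays already known. Their changes between the genotypes are therefore a description of the chosen genes, and no test over the list is given. Of the 45 genes, 39 had at least 1 probe set annotated with that symbol alone, 58 probe sets in all out of 24965 on both chips, where 13675 genes had one. The A chip carried 34 of them, for 26 genes, and chip B 24, for 20 genes, with 7 genes on both chips. No value is given for Zbp1, Oas1a, Oas3, Rnf213, Ifi44 or Xaf1, which had no such probe set.

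The embryos were E18.5 offspring of crosses between p63 heterozygous mice, and the labels do not name the mutant allele or the sex. Null embryos lack p63, the Trp63 product, a transcription factor on which stratified epithelia depend. Each of the 2 genotypes had 2 arrays of chip A, and 2 of chip B, 8 single-colour Affymetrix arrays in all, and whole skin was profiled without separating epidermis from dermis. The design gives 2 embryos per genotype, and the titles number them 1 and 2 on each chip, so p-values measure the spread between these few embryos. Signals are linear MAS5 intensities per probe set.

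Type I interferons bind a receptor of the Ifnar1 and Ifnar2 chains, whose kinases Jak1 and Tyk2 phosphorylate Stat2. With Irf9, Stat2 enters a complex that binds interferon-stimulated response elements and switches on genes that sense, degrade or trap viral nucleic acid. In skin, keratinocytes, fibroblasts, endothelial cells and macrophages can all run this programme.

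Trp63 itself, on chip A alone, fell from signals of 379.3 and 347.1 in wild type to 61.9 and 46.6 in the null (log2 fold change -2.49, adjusted p = 1.13e-05 in limma), though the position of this probe set and of the mutation within the gene are not known here. Null array 2 stood apart on both chips in the added CreX control transcript, 6419.5 against 3333.7 to 3836.8 on chip A, and 32512 against 16965.6 to 18942.4 on chip B. Beta-actin read by its 3' over its 5' probes, a measure of RNA integrity, had ratios of 1.63 and 1.69 in wild type against 1.27 in both null arrays of chip A, and those of chip B were likewise lower in the null, at 1.36 and 1.33. Of 11 keratinocyte markers tested on chip A 11 fell, and their list summed to 41041.6 to 42553.4 in wild type and 4259.4 to 4907.2 in the null. Dermal fibroblast markers, the other defining cells of skin, summed to 29657.8 to 31525.0 and 34663.8 to 41250.3. Their directions were mixed, and of 10 tested on chip A 4 rose and 1, Prrx1, fell. Macrophage markers rose in 13 of 16 cases on chip A, and the summed signal of the 17 measured went from 4864.2 to 5035.7 in wild type to 11771.4 to 12681.1 in the null. Endothelial markers rose in 7 of 9 cases on chip A, with sums of 2648.1 to 2766.5 and 4696.5 to 5232.8. On chip B 2 of 3 endothelial markers rose. Flt1, with a log2 fold change of 0.94 on chip A, had -0.03 on chip B (adjusted p = 0.957 in limma). Over all tested probe sets 22.1% were higher and 22.2% lower on chip A, and 14.5% and 14.9% on chip B. Neutrophil markers summed to 646.1 to 700.7 and 1004.6 to 1018.1, and of 3 tested Csf3r passed (adjusted p = 0.0402 in limma), a call lost with no filter (0.0716) and on leaving out null replicate 2 (0.167) or either wild-type array (0.0739 and 0.185). The granule genes Ngp, Mmp8 and Ltf were too dim to be tested, with Ngp at 13.8 and 11.7 against 101.9 and 91.3, Mmp8 at 9.9 and 5.4 against 103.7 and 113.7, and Ltf at 7.7 and 6.7 against 85.9 and 71.0. The 13 lymphocyte markers measured summed to 1390.1 to 1435.9 and 1390.0 to 1408.6, of which Thy1, also made outside lymphocytes, gave 1093.1 to 1199.8. The other 12 summed to 236.1 to 270.1 and 296.9 to 301.7, and the T cell marker Cd3e read at most 18.1 in any array. Among markers of plasmacytoid dendritic cells, which specialise in making interferon, 3 of 4 tested on chip A rose and 1 fell, with sums of 1543.4 to 1617.7 and 2821.5 to 3077.1. Cox6a2, also a muscle oxidase subunit, carried that difference, and without it the sums were 708.3 to 808.7 and 648.4 to 654.3. The calls of Spib and Pacsin1 were lost with no filter (adjusted p = 0.0676 and 0.0689) and on leaving out any of several single arrays (up to 0.101 and 0.153), and the defining marker Siglech read 20.3 to 29.5 on chip B. Bulk skin cannot tell more cells of a type apart from more RNA per cell. The part of these shifts in cell makeup and RNA quality in the changes given next was not tested.

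Null skin had higher signals than wild-type skin for nearly all the interferon effectors and sensors that could be tested. Of 31 genes with a tested probe set, 30 had at least 1 that passed the threshold upward and 0 had one that passed downward. The threshold was an adjusted p of 0.05 in limma, adjusted over every tested probe set of the chip. On chip A 18 of 19 tested member probe sets were higher and 0 lower, where 22.1% of all tested probe sets were higher and 22.2% lower. On chip B 15 of 18 were higher and 0 lower, where the shares over the whole chip were 14.5% and 14.9%. The null arrays both lay above both wild-type arrays for 19 of 19 member probe sets on chip A, and 16 of 18 on chip B, against 37.8% and 36.0% of all tested probe sets. The median log2 fold change, null minus wild type on the log2(signal + offset) scale, was 1.19 over the members of chip A, and 1.25 over those of chip B, beside 0.02 and 0.04 over all tested probe sets. Without null replicate 2, the array apart in its spikes, 18 member probe sets were tested on chip A and 17 on chip B. Their median log2 fold change was 1.26 on each chip, with ranges of 0.40 to 3.27 and 0.18 to 3.20. These counts and medians read only the members bright enough to be tested. Of the 37 tested, 7 had a wild-type mean below the level for testing and passed it through their null arrays: Adar, Cmpk2, Ifit1, Ifit3 and Usp18 on chip A, and Dhx58 and the second probe set of Stat2 on chip B.

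**Figure D1:**
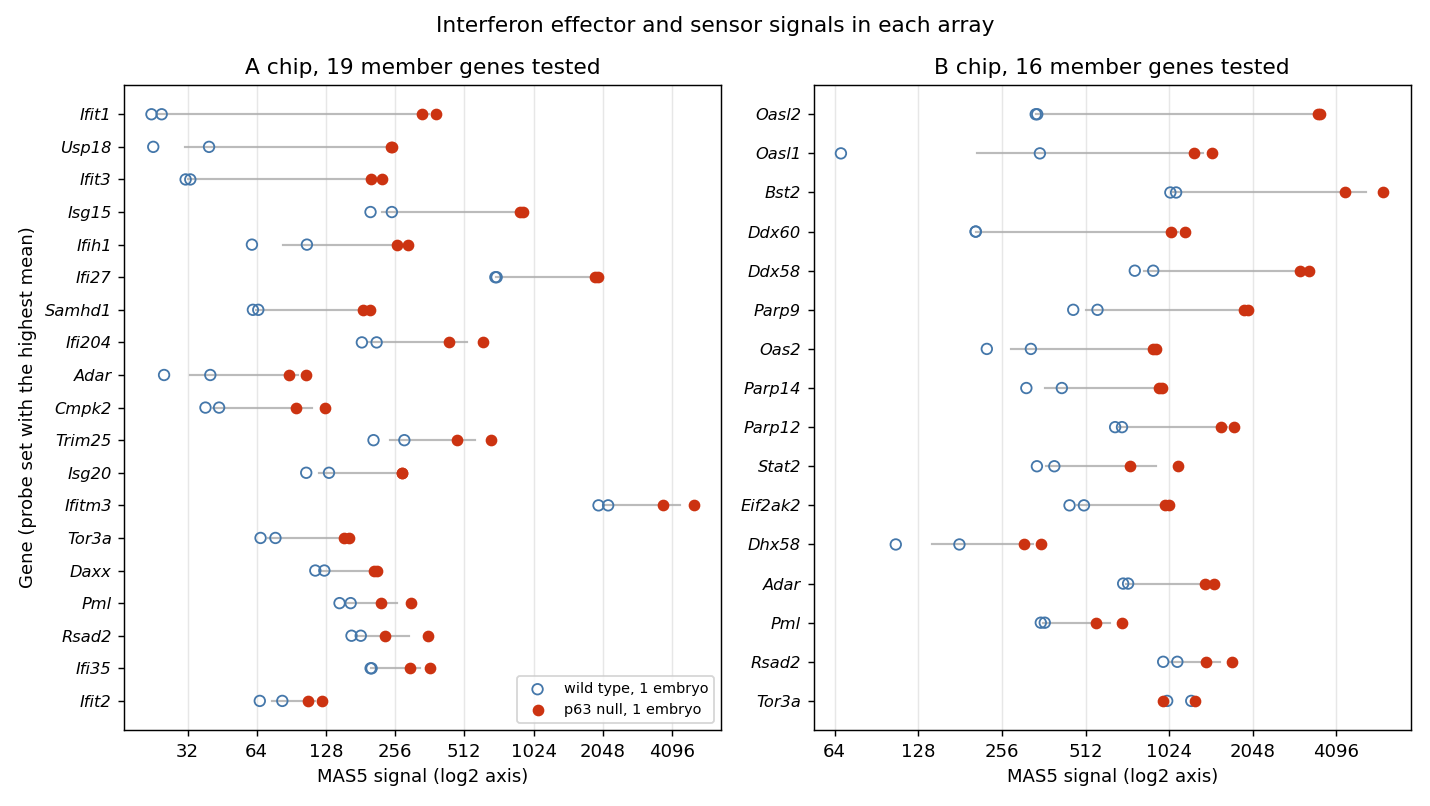
MAS5 signal of each array (log2 axis) for the 19 member genes tested on chip A, and the 16 on chip B, each by its probe set with the highest mean, ordered by log2 fold change; open circles are wild-type embryos, filled circles null embryos, and grey lines join the genotype means. Both null arrays lie to the right of both wild-type arrays in every row except Tor3a on chip B.

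The promoters of the members were searched for the response element that gives these genes their name. RefSeq promoter windows (GRCm38.p6, 250 bases before to 50 after a transcription start) were matched by symbol for 35 of the 45 genes. The core motif GAAANNGAA, on either strand, lay in a window of 20 of these 35 genes, 57.1%. Over all 27025 genes with a window the share was 9.76%, and over the 8100 of them with a tested probe set it was 8.28%. With one more A required at the 3' end, the shares were 48.6% of members and 3.99% of all genes. The gamma-activated site TTCNNNGAA, a palindrome-like motif bound by Stat dimers, was found for 9 of the 35, 25.7%, beside 9.55% of all genes, and it can overlap the core. Shown here are the stretches of the tested members with several cores before the start, and beside them the single-core stretch of Rsad2. On chip B Rsad2 had the smallest log2 fold change among the member probe sets that passed, 0.56, and on chip A it had 0.69. Ifih1, Trim25, Stat2 and Adar, not shown, also have 1 core before the start. Their log2 fold changes were 1.62 for Ifih1, 1.18 for Trim25, 1.18 for the brighter Stat2 probe set, and 1.27 (chip A) and 0.95 (chip B) for Adar. Each stretch reads 5' to 3' on the strand of its gene, ends before the transcription start and has the cores in capitals. Overlapping cores join into 1 run, and cores on the opposite strand begin with TTC.
Ifit1, chr19:34640760-34640833, plus strand: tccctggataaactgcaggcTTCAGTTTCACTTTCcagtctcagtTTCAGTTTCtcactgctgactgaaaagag
Ifit3, chr19:34583354-34583455, plus strand: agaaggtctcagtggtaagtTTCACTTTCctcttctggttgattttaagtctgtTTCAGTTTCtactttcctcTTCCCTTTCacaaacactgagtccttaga
Isg15, chr4:156200856-156200916, minus strand: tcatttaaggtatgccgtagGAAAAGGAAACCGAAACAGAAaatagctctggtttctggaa
Ddx60, chr8:61928014-61928086, plus strand: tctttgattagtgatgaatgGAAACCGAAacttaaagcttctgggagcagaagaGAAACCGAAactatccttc
Bst2, chr8:71537568-71537622, minus strand: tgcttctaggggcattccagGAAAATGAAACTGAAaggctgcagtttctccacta
Rsad2, chr12:26456543-26456591, minus strand: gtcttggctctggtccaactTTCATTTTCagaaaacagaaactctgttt
The Ifit1, Ifit3 and Isg15 stretches each hold 3 cores and those of Ddx60 and Bst2 hold 2. The windows of Oasl1, Oasl2, Ifit2, Ifitm1, Parp12, Cmpk2, Samhd1, Isg20, Rnf213, Nmi, Ifi35, Pml, Sp100, Daxx and Xaf1 do not hold the core. Oasl2, with the largest rise of all tested probe sets of chip B, is among them. The number of cores was not tested against the size of the rise.

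Upstream of the effectors, most interferon genes with a probe set were too dim to be tested. Of the 20 ligand genes listed, 9 had a probe set on chip A, and 3 of these were bright enough to be tested. Ifna5 rose, with signals of 88.8 and 63.9 in wild type against 141.8 and 119.5 in null skin (log2 fold change 0.70, SE 0.21, adjusted p = 0.0257 in limma). With no filter on low signals that call was lost (adjusted p = 0.0722), as it was on leaving out null replicate 1 (0.0922) or wild-type replicate 2 (0.169). Alpha interferon genes are near-identical copies, so this probe set can bind several of them. Ifnab and Ifna9 had log2 fold changes of 0.56 (adjusted p = 0.0921) and -0.05 (adjusted p = 0.914). Ifnab passed with no variance trend (adjusted p = 0.0496 in limma), and without null replicate 1 its log2 fold change was 0.80. Ifnb1, the single beta interferon gene, read 13.4 and 12.4 in wild type against 3.5 and 8.4 in null skin, and Ifng, the type II interferon of lymphocytes, read at most 3.7. Both stayed below the level for testing.

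Of 5 receptor genes tested on chip A 1 rose and 0 fell, a share close to the 22.1% of all its tested probe sets, and of 2 on chip B 0 passed. The one that rose was Il10rb, a chain shared by the receptors of interleukin-10 and lambda interferons, from 469.4 and 470.0 to 907.4 and 786.0 (log2 fold change 0.83, adjusted p = 0.000732). The type I receptor chains Ifnar1 and Ifnar2 had log2 fold changes of 0.24 (SE 0.14, adjusted p = 0.207) and 0.37 (SE 0.17, adjusted p = 0.116), and Ifnlr1, the other lambda receptor chain, one of -0.69 (SE 0.24, adjusted p = 0.0649). Ifnlr1 passed with no variance trend (0.0443) and on leaving out null replicate 1 (0.0203). Ifngr2, a chain of the type II receptor, had 0.33 on chip B (adjusted p = 0.0578) and passed with quantile normalization (0.00920), the filter at the 60th percentile (0.0465) and null replicate 1 left out (0.0408). On chip A it had -0.15 (adjusted p = 0.687), and it passed downward with null replicate 1 left out (-0.61, adjusted p = 0.0322). In the list of Jak kinases and Irf factors 6 of 9 genes rose on chip A, and 0 fell, beside 22.1% and 22.2% of all its tested probe sets.

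Irf7, the factor that amplifies interferon production and is itself interferon-stimulated, read 36.0 and 45.3 in wild type against 318.4 and 375.3 in null skin. The null arrays lay far above both wild-type arrays, whose signals were below the level for testing, so Irf7 was tested only through its null arrays (log2 fold change 2.75, SE 0.19, adjusted p = 7.25e-06 in limma). Irf9, the DNA-binding partner of Stat2, rose from 294.7 and 284.5 to 788.1 and 648.8 (1.27, adjusted p = 0.000117). Irf8, abundant in macrophages and dendritic cells, and Irf1 rose by 1.12 and 1.08. Irf5 and Jak1 rose by 0.72 and 0.40, calls that were lost for Irf5 on leaving out null replicate 2 (adjusted p = 0.0541) or wild-type replicate 2 (0.0713), and for Jak1 with no variance trend (0.0513) or with either wild-type array left out (0.0623 and 0.129). Irf3, the factor activated directly by RNA sensing, gave 0.16 on that scale (adjusted p = 0.457), and Tyk2 values of -0.13 on chip A (adjusted p = 0.682) and 0.30 on chip B (adjusted p = 0.224).

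Of the genes that lead from sensing to interferon induction, 3 were tested on chip A, of which 0 rose and 1 fell. On chip B 1 was tested, Ticam1, which missed the threshold. Over all tested probe sets 22.1% were higher and 22.2% lower on chip A, and 14.5% and 14.9% on chip B. Traf6, a ubiquitin ligase of Toll-like and interleukin-1 receptor signalling, fell from 418.8 and 456.1 to 133.9 and 138.3 (log2 fold change -1.59, adjusted p = 3.68e-05 in limma). The kinase Tbk1 and the adaptors Myd88 and Ticam1 had values of -0.22, 0.44 and 0.02 (adjusted p = 0.233, 0.0841 and 0.960). Without wild-type replicate 1 the value of Myd88 was 0.64. Among 6 negative regulators tested on chip A 2 rose and 1 fell, and of 2 on chip B 0 passed, beside the same chip-wide shares. Socs1, an inhibitor of Jak kinases, rose from 146.4 and 91.9 to 249.9 and 265.5 (1.07, adjusted p = 0.00325). Socs3 rose by 0.70 and the phosphatase gene Ptpn2 fell by 0.64. The Socs3 probe set of chip B, below the level for testing, read 184.1 and 152.0 in wild type against 158.3 and 83.7 in null skin, with overlapping groups. The Socs3 call was lost without null replicate 1 (adjusted p = 0.0524) or wild-type replicate 2 (0.0687), and that of Ptpn2 without null replicate 2 (0.0531), wild-type replicate 1 (0.0591) or 2 (0.0763).

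**Figure D2:**
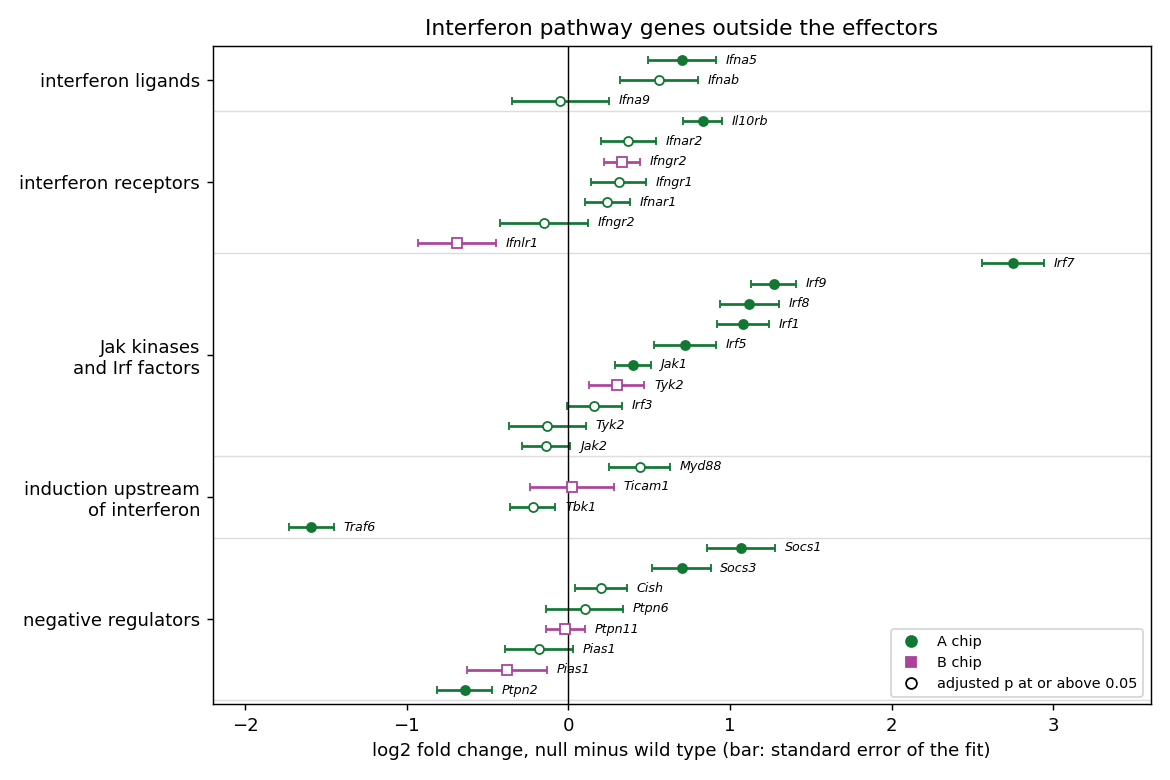
Log2 fold change (null minus wild type, bars are standard errors of the limma fit) of every tested pathway gene outside the effectors, by list; circles are A-chip and squares B-chip probe sets, and open symbols missed the threshold. Irf7 lies farthest to the right at 2.75 and Traf6 farthest to the left at -1.59, with the receptor chains between -0.69 and 0.83.

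All 4 RNA helicase sensors, the cytoplasmic proteins that recognise viral RNA, rose. Ddx60, a helicase that assists RNA sensing, read 206.2 and 205.8 in wild type against 1040.2 and 1164.9 in null skin, 5.35-fold higher by mean signal. The wild-type arrays were nearly equal and the null arrays differed by 1.12-fold (log2 fold change 2.15, SE 0.16, adjusted p = 0.000150 in limma). Ddx58, which encodes RIG-I, the sensor of RNA with a triphosphate end, read 897.4 and 770.3 in wild type against 3019.0 and 3273.1 in null skin (1.85, SE 0.14, adjusted p = 0.000123). Ifih1, which encodes MDA5, the sensor of long double-stranded RNA, read 105.8 and 61.0 against 260.0 and 292.4 on chip A (1.62, adjusted p = 0.000515).

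Dhx58, which encodes the regulator LGP2, read 180.0 and 106.2 in wild type against 353.8 and 308.7 in null skin (0.99, adjusted p = 0.0288). Its wild-type mean was below the level for testing, which it passed through its null arrays. With no filter that call was lost (adjusted p = 0.0728), as it was on leaving out wild-type replicate 2 (0.163) or null replicate 1 (0.0516), and its other probe set, below the level for testing, read 37.2 to 53.6. Among the DNA sensors, Ifi204, a nuclear PYHIN-family protein much expressed in macrophages, rose from 183.5 and 212.7 to 615.0 and 437.9 (1.34, adjusted p = 0.000365). PYHIN genes are close copies, and this probe set may bind other members. Further Ifi204 probe sets, below the level for testing, read 32.5 and 18.6 in wild type against 10.8 and 32.3 in null skin, and 21.3 and 32.7 against 47.4 and 43.0. Ifi203 read 114.5 and 122.8 in wild type against 156.7 and 143.0 in null skin, below the level for testing.

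Oas enzymes sense double-stranded RNA and make oligoadenylates that activate RNase L, and the Oasl proteins are their relatives. All 3 members tested rose, and they include the largest rise of chip B. Oasl2 read 338.8 and 343.1 in wild type against 3581.4 and 3505.8 in null skin, 10.4-fold higher, and ranked 1 of 7446 tested probe sets by log2 fold change. The pairs within each genotype were within 1.02-fold of each other. Its neighbour Oasl1, a repressor of Irf7 translation, read 350.7 and 67.4 in wild type against 1461.0 and 1259.8 in null skin (2.67, SE 0.48, adjusted p = 0.00687 in limma). The wild-type embryos differed by 5.20-fold for this gene, so the log2 fold change was 3.54 when wild-type replicate 1 was left out and 1.80 when it was wild-type replicate 2. Oas2 read 325.5 and 225.9 in wild type against 898.3 and 918.7 in null skin (1.56, adjusted p = 0.00142). Oas1g, next to Oas1a on chromosome 5, read 4.7 to 19.9 in all arrays with overlapping groups and was not tested.

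The Ifit proteins bind viral RNA that lacks the cap methylation of host messages. Ifit1 had the largest rise of the members on chip A, from 24.7 and 22.3 in wild type to 335.1 and 385.5 in the null, 15.3-fold by mean signal and rank 12 of 7453 tested probe sets. Wild-type signal was below the level for testing, so this fold rests on a dim baseline (log2 fold change 3.36, SE 0.19, adjusted p = 1.83e-06 in limma, and 2.44 with the offset at the 40th percentile). Ifit3 read 31.4 and 32.9 in wild type against 224.7 and 201.4 in null skin (2.32, SE 0.19, adjusted p = 2.34e-05). Like Ifit1, it was tested only through its null arrays. Ifit2, which lies next to Ifit3 on chromosome 19, read 66.0 and 82.7 against 122.8 and 106.7. Its null arrays lay above the wild-type ones, yet the value of 0.55 (SE 0.20, adjusted p = 0.0513) missed the threshold, which it passed with the offset at the 40th percentile (0.0474) and with no variance trend (0.0316). The difference between Ifit2 and its family members was not tested.

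The Isg15 system attaches the ubiquitin-like protein Isg15 to newly made proteins, and Usp18 removes it and also blocks the interferon receptor. Isg15 read 247.8 and 200.1 in wild type against 922.0 and 898.0 in null skin, 4.06-fold higher (log2 fold change 1.97, SE 0.14, adjusted p = 8.98e-06 in limma). Usp18 read 39.7 and 22.7 in wild type against 246.7 and 249.2 in null skin (2.59, SE 0.23, adjusted p = 3.27e-05). Its wild-type signals were below the level for testing, so Usp18 was tested only through its null arrays. For both genes the null embryos were nearly equal and the wild-type embryos less so. Trim25, the ubiquitin ligase that activates RIG-I, rose from 206.2 and 280.8 to 474.0 and 669.5 (1.18, adjusted p = 0.00129). Trim30a, a restraint on inflammatory signalling, read 27.3 and 38.9 in wild type against 69.0 and 48.0 in null skin, and was too dim to be tested. A second Trim30a probe set, dimmer still, read 1.7 and 3.6 against 1.9 and 1.2.

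Enzymes that act on RNA and nucleotides rose by moderate amounts. Samhd1, which depletes the nucleotides needed for reverse transcription, read 61.6 and 65.0 in wild type against 185.4 and 199.3 in null skin (log2 fold change 1.43, SE 0.18, adjusted p = 0.000264 in limma). Cmpk2, a mitochondrial nucleotide kinase, read 43.9 and 38.3 against 126.9 and 95.1 (1.19, adjusted p = 0.00264). In both genes the groups were well apart, but Cmpk2 passed the level for testing only through its null arrays. Adar, which edits adenosine to inosine in double-stranded RNA and so hides self RNA from MDA5, read 699.5 and 728.7 in wild type against 1491.4 and 1375.9 in null skin on chip B (0.95, adjusted p = 0.00257). Its A-chip probe set read 40.2 and 25.3 against 88.2 and 104.4 (1.27, adjusted p = 0.00302). That probe set, too, passed the level for testing only through its null arrays. Isg20, a 3' exonuclease for single-stranded RNA, rose by 1.14, and Eif2ak2, the kinase PKR that halts translation on double-stranded RNA, rose by 1.00 on chip B.

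Rsad2, or viperin, which makes a chain-terminating nucleotide, is the neighbour of Cmpk2 on chromosome 12. It read 165.4 and 181.5 in wild type against 232.1 and 356.0 in null skin on chip A (log2 fold change 0.69, adjusted p = 0.0209 in limma). On chip B it read 1095.9 and 974.6 against 1718.3 and 1391.0 (0.56, adjusted p = 0.0327). The groups did not overlap on either chip, but both calls depended on single arrays. With no filter the A-chip call was lost (adjusted p = 0.0609), as it was on leaving out null replicate 2 (log2 fold change 0.40, adjusted p = 0.121) or wild-type replicate 1 (0.0587). The B-chip call was lost without null replicate 1 (0.0715), wild-type replicate 1 (0.0825) or wild-type replicate 2 (0.187), with no filter (0.0556) and with no variance trend (0.0643).

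The 3 Parp genes tested, all on chip B, rose by 1.24 to 1.82 on the log2 scale. Parp9, which works with Dtx3l on chromatin and in interferon signalling, read 565.4 and 462.4 in wild type against 1970.4 and 1907.2 in null skin (log2 fold change 1.82, SE 0.15, adjusted p = 0.000203 in limma). Parp14, a mono-ADP-ribosyltransferase, read 313.5 and 420.7 against 944.4 and 964.0 (1.27, adjusted p = 0.00247). Parp12, which blocks translation of viral messages, read 692.8 and 654.4 against 1571.5 and 1751.3 (1.24, adjusted p = 0.000889). Every null array exceeded both wild-type arrays in these 3 genes. A second Parp12 probe set read 274.8 and 239.2 against 333.7 and 298.4, a value of 0.25 (SE 0.20, adjusted p = 0.383).

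Among the membrane restriction factors Bst2 and Ifitm3 rose. Bst2, or tetherin, which holds budding virions at the cell surface and is also a surface marker of plasmacytoid dendritic cells, read 1034.4 and 1085.0 in wild type against 4410.0 and 6047.8 in null skin, 4.93-fold higher (log2 fold change 2.23, SE 0.17, adjusted p = 0.000130 in limma). Ifitm3, which stops viral fusion in endosomes, read 1964.1 and 2162.8 in wild type against 3756.8 and 5107.6 in null skin (1.08, SE 0.15, adjusted p = 0.000503). A second Bst2 probe set, below the level for testing, read 67.8 and 127.6 against 160.9 and 67.7. In both genes, on the tested probe sets, null embryo 2 was higher than null embryo 1, by 1.37-fold and 1.36-fold. Ifitm1 and Ifitm2, its neighbours on chromosome 7 with closely related sequences, read 18.4 to 33.4 and 23.7 to 62.5 and were not tested. The Ifitm2 groups overlapped.

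In the signalling group Stat2 and Ifi35 rose. Stat2, the transcription factor specific to type I and lambda interferon signalling, read 342.2 and 395.3 in wild type against 1097.7 and 741.7 in null skin on its brighter probe set (log2 fold change 1.18, SE 0.21, adjusted p = 0.00651 in limma). The other Stat2 probe set was erratic, with 317.8 and 35.5 in wild type against 237.4 and 1273.0 in null skin, and missed the threshold (1.77, SE 0.81, adjusted p = 0.140). It passed with the replicate block (0.0240) and on leaving out replicate 1 of the null (0.00261) or of wild type (0.0222). Ifi35 read 200.3 and 202.3 against 361.6 and 296.5 (0.67, adjusted p = 0.00692). Nmi, which pairs with Ifi35, read 31.7 and 41.2 against 37.8 and 27.4, with overlapping groups below the level for testing.

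Proteins of PML nuclear bodies, which silence incoming viral genomes, had the smallest median changes of the groups with several tested genes, 0.72 on chip A. Daxx, a histone chaperone of these bodies, read 115.1 and 126.0 in wild type against 206.6 and 214.5 in null skin (log2 fold change 0.74, adjusted p = 0.00535 in limma). Pml, their scaffold, rose from 164.0 and 146.7 to 221.4 and 300.1 on chip A (0.69, adjusted p = 0.0134). On chip B it rose from 365.2 and 353.4 to 692.8 and 559.2 (0.71, adjusted p = 0.0234), and the groups did not overlap on either chip. The A-chip call of Pml was lost without null replicate 2 (0.0710) or wild-type replicate 2 (0.0642), and the B-chip call without null replicate 1 (0.0560), wild-type replicate 1 (0.0913) or wild-type replicate 2 (0.114). Sp100, another core protein, was excluded from testing by its low wild-type signal, although it had a wide gap between the groups. Its B-chip probe set read 26.3 and 35.4 in wild type against 268.5 and 286.1 in null skin. The wild-type signals lie below the 20th percentile of the chip, 54.3, so no fold is given. With no filter on low signals its log2 fold change there was 1.96 (adjusted p = 0.00698), and its A-chip probe sets had 1.24 (0.0205) and 1.11 (0.0384).

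Ifi27, a small mitochondrial protein, read 707.8 and 698.9 in wild type against 1903.7 and 1953.1 in null skin (log2 fold change 1.44, SE 0.11, adjusted p = 1.38e-05 in limma). The spread within each genotype was small beside the gap. Rtp4, a chaperone-like effector, read 26.7 and 17.7 against 95.6 and 30.7 and stayed below the level for testing. Tor3a, an ATPase of the endoplasmic reticulum, gave different readings on each chip. On chip A it read 77.2 and 66.5 in wild type against 160.7 and 153.7 in null skin (1.01, adjusted p = 0.00221), while on chip B it read 1230.0 and 1007.5 against 1267.8 and 973.9, a value of 0.00 (SE 0.18, adjusted p = 0.993). Which transcripts each probe set binds is not known here.

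**Figure D3:**
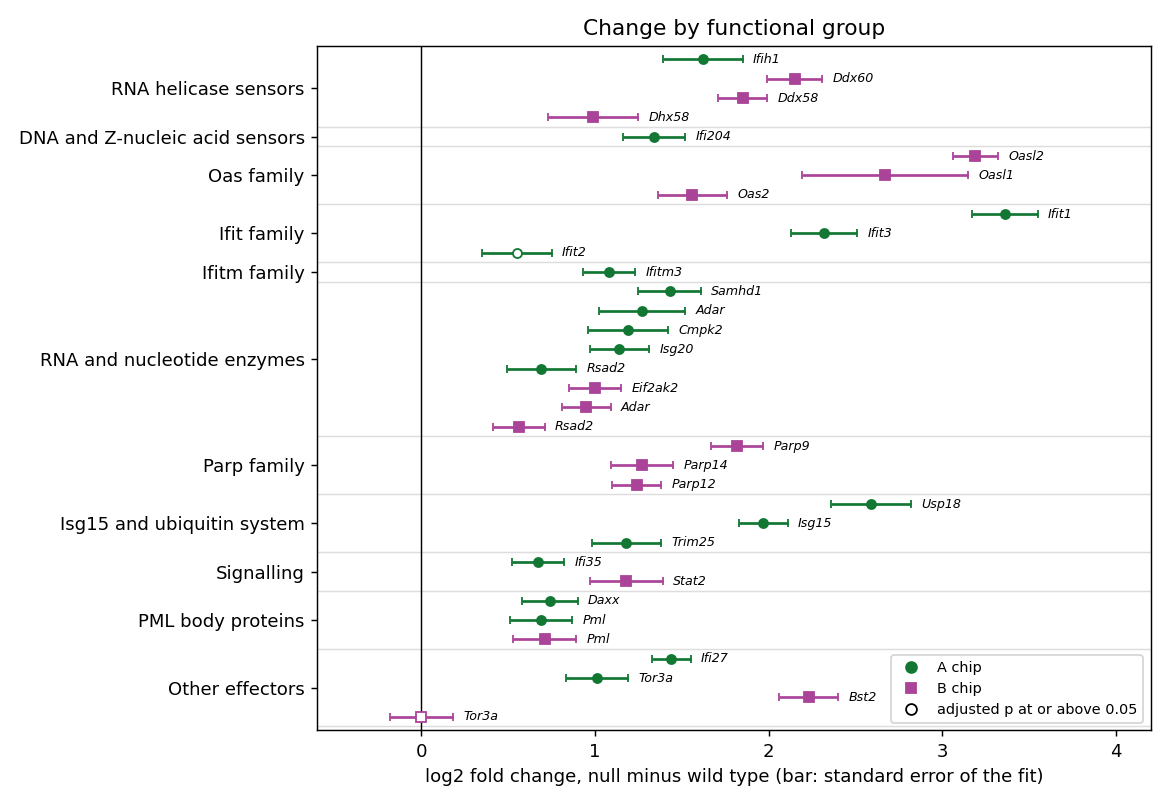
Log2 fold change (null minus wild type, bars are standard errors of the limma fit) of each tested member gene by functional group, read by its probe set with the highest mean; circles are A-chip and squares B-chip values, and open symbols missed the threshold. The Oas, Ifit and Isg15 groups reach farthest to the right, while the PML body proteins lie near 0.70.

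The chips carry different genes, so the functional groups are given apart. On chip A the medians of groups with several tested genes were 2.32 for the Ifit family, 1.97 for the Isg15 and ubiquitin system, 1.22 for the other effectors, 1.19 for the RNA and nucleotide enzymes and 0.72 for the PML body proteins. On chip B they were 2.67 for the Oas family, 1.85 for the RNA helicase sensors, 1.27 for the Parp family, 1.11 for the other effectors (Bst2 and Tor3a) and 0.95 for the RNA and nucleotide enzymes. Ranges within a group were wide, from 0.55 to 3.36 in the Ifit family and from 1.56 to 3.19 in the Oas family, which exceeds the gap between neighbouring medians. The Oas median was 3.18 with wild-type replicate 1 left out and 1.80 with wild-type replicate 2 left out, in step with Oasl1. With the offset at the 40th percentile the Ifit median was 1.65 and the Isg15 median 1.8, so the order of these groups reversed. Several of the genes behind these medians were tested only through their null arrays. They were Ifit1, Ifit3, Usp18, Adar and Cmpk2 on chip A, and Dhx58 on chip B. No test between groups of genes was made.

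Several probe sets of a gene allow a check within the gene. Of 6 genes with several tested probe sets, 3 had calls that differed, namely Parp12, Stat2 and Tor3a, while Adar, Pml and Rsad2 were called higher on both chips. Another 21 member probe sets lay below the level for testing, and with no filter 4 of them were called higher and 0 lower. On chip A 3 were called and 12 were not, and on chip B 1 was called and 5 were not. The whole chips hold 12488 and 12477 probe sets, with 66 controls on each left out. Of these, 1483 and 819 were called higher with no filter, and 1524 and 906 lower. Those 4 were the 3 probe sets of Sp100 and a second one of Cmpk2, which read 2.1 and 1.9 in wild type against 13.4 and 15.5 in null skin.

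**Figure D4:**
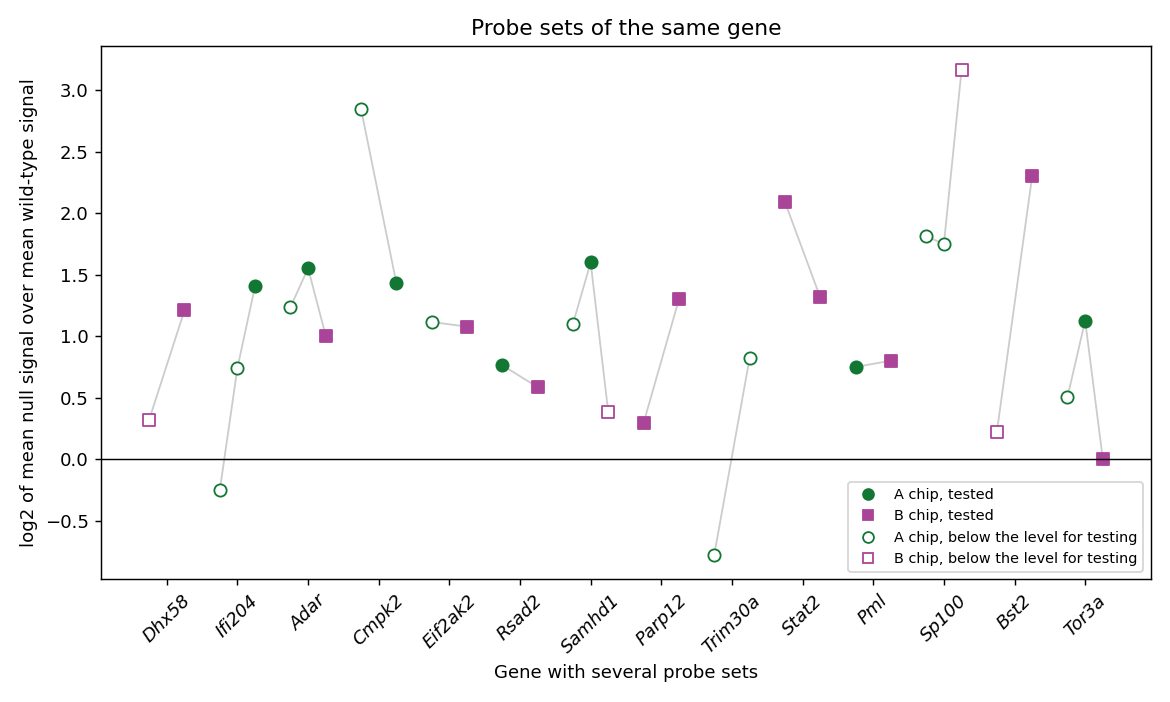
Log2 of the mean null signal over the mean wild-type signal (without an offset) for each probe set of the 14 member genes that have several; circles are A-chip and squares B-chip probe sets, and open symbols lay below the level for testing. Tor3a differs between chips, with 0.00 on chip B, and the points below 0 are dim, untested probe sets of Ifi204 and Trim30a.

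Variation between embryos of a genotype did not run one way across the members. The results known when the genes were chosen depend in part on this spread, so its size over the members is a description. Null embryo 2 exceeded null embryo 1 in 11 of 19 tested member probe sets on chip A, and in 8 of 18 on chip B. Wild-type embryo 2 exceeded wild-type embryo 1 in 10 of 19 and 6 of 18. The median absolute log2 difference between the null arrays was 0.18 over the members and 0.18 over all tested probe sets of chip A, and 0.15 and 0.21 on chip B. Between the wild-type arrays it was 0.15 and 0.14 on chip A, and 0.17 and 0.16 on chip B. The widest pairs among the tested members were those of Oasl1 in wild type, 5.20-fold, and of the second Stat2 probe set, 8.95-fold in wild type and 5.36-fold in the null.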

How the data were processed

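The deposited values are linear intensities per probe set, made by the authors with MAS5, per the submitters' processing notes; no scaling target was given in the sources used here. Trimmed means (2%) were 250.1 to 250.2 on chip A and 500.1 on chip B. Each array was rescaled to its chip's trimmed mean, the 20th percentile of the chip (12.9 and 54.3) was added, and log2 was taken, which understates changes of dim genes. The 66 control probe sets of each chip and those with a mean log2 at or below the 40th percentile were left out, leaving 7453 and 7446. Each chip was fitted apart with limma 3.58.1 in R 4.3.3 (lmFit, eBayes with trend), two-sided, with Benjamini-Hochberg adjustment over the chip. The script was tested on simulated data. With 2 embryos a genotype, an exact permutation test of a single gene cannot reach 0.05, and the number of arrays limits precision. Same-numbered null and wild-type arrays did not deviate together (r = 0.039 and -0.046 across probe sets), so no block was used.

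Gene symbols came from the platform annotation (1 symbol for 10855 and 10603), and the probe set with the highest mean stood for a gene. Every member is named. Signals of each array are given for up to 3 members per functional group, and for probe sets of a gene that disagree in direction or, if tested, in call. Of each fixed pathway list, the largest changes are named. Pathway genes outside the largest 3, and marker genes, were named after their values were seen. The members and lists were chosen with earlier results of these data known. 2 probe sets with several symbols that include a member were not used.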

Additional observations from a re-analysis of the deposited data

How the results depend on the processing

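Of the 18 member probe sets called higher on chip A, 16 were called under every alternative that tested them, and of the 15 on chip B 12 were. No member call reversed direction under any alternative run. The filter at the 60th percentile gave 11 on chip A, where fewer probe sets were tested. Leaving out single arrays gave 15 to 17 on chip A and 12 to 15 on chip B, with 0 lower throughout. Over all probe sets of chip A the same omissions gave 1075 to 1579 higher and 1052 to 1797 lower. On chip B they gave 575 to 1244 higher and 544 to 1354 lower. With the replicate block the member counts were 18 and 16, and the second Stat2 probe set was the 1 call it changed. It gave 1674 higher and 1694 lower over all probe sets of chip A and 1229 and 1182 over those of chip B. Of the recomputed medians of functional groups, 116 stayed within the median standard error of their genes and 13 moved beyond it. Signals near background limit what the untested probe sets can show.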
